A study of Zea mays with 6 samples.

Results

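THICK TASSEL DWARF 1 (TD1, Zm00004b012516) and FASCIATED EAR 2 (FEA2, Zm00004b021988) are the 2 receptor genes described here, out of 42508 genes listed. They were chosen by identifier as receptors that restrict meristem size, and the names in the deposited annotation match them. RNA came from immature ears of 2 nearly isogenic recombinant inbred lines of a teosinte by maize cross, with 3 libraries per line. Line B46 carries the maize version of the kernel row number locus qKRN5.04b on chromosome 5, and line A12 the teosinte version. All ears were 1.5 to 2.0 mm primordia from plants with 6 to 9 leaves under standard growth conditions, taken between the inflorescence meristem and spikelet pair meristem stages. A library pooled ears from no fewer than 50 plants, and all libraries are stated to be 1 batch. Each genotype is represented by a single line, so the locus and any other difference between A12 and B46 cannot be told apart.

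In the shoot meristem, small secreted CLE peptides bind leucine-rich repeat (LRR) receptors at the cell surface, and the signal limits the stem cell population by restraining WUSCHEL-type homeobox factors. TD1 is the maize counterpart of the Arabidopsis receptor kinase CLAVATA1. FEA2 is the counterpart of CLAVATA2, a receptor-like protein with the LRR part but no kinase. Loss of either gene in maize enlarges the inflorescence meristem and gives thick or fasciated ears and extra kernel rows, which is why both are of interest for a kernel row number locus.

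Both receptors were clearly expressed in every library, and neither was called different between the lines. TD1 was read 3565, 3431 and 1904 times in B46 replicates 1, 2 and 3 and 1511, 2409 and 2553 times in A12 replicates 1, 2 and 3. The lines overlapped: B46 replicate 3 lay below A12 replicates 2 and 3, and A12 replicate 1 was the lowest of all. FEA2 was read 1060, 1057 and 981 times in B46 and 814, 881 and 901 times in A12. Every A12 library lay below every B46 library, but by a narrow margin.

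On the deposited FPKM scale, which corrects for gene length and library size, TD1 was at 66.5, 62.4 and 35.1 in B46 and 29.5, 47.8 and 47.1 in A12. The means were 54.7 ± 17.1 and 41.5 ± 10.4 FPKM (SD, n = 3). FEA2 was at 37.6, 36.5 and 34.3 FPKM in B46 and 30.2, 33.2 and 31.6 in A12, with means of 36.2 ± 1.67 and 31.7 ± 1.52 (SD, n = 3). TD1 was thus the higher of the pair in B46 replicates 1 and 2 and A12 replicates 2 and 3, while in B46 replicate 3 and A12 replicate 1 the FPKM levels of both receptors were nearly equal.

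**Figure D1:**
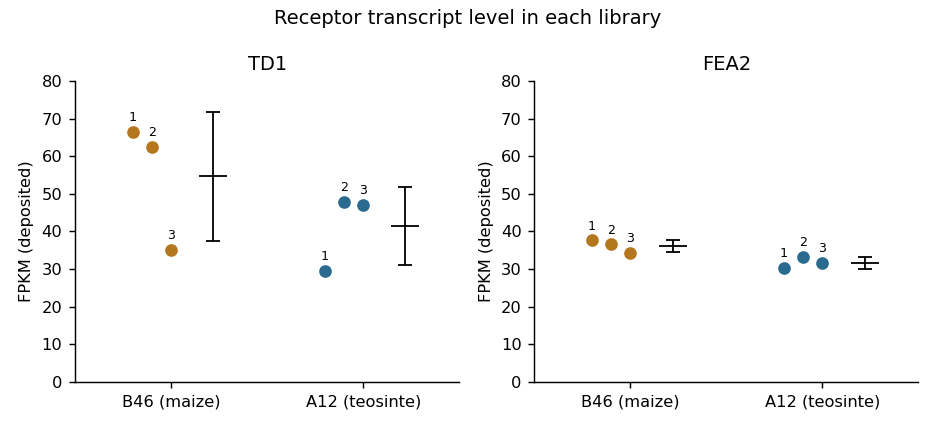
Deposited FPKM of TD1 (left) and FEA2 (right) in each library of B46 and A12. Points are libraries labelled by replicate number, and the bars beside them are the mean and SD of 3 libraries. TD1 spans 29.5 to 66.5 with overlapping lines, and FEA2 spans 30.2 to 37.6 with the A12 points just under the B46 points.

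The comparison of A12 with B46 asks how far either receptor's transcript level could have moved with the teosinte segment. For TD1 the log2 fold change, A12 minus B46, was -0.40 with an SE of 0.28 (edgeR adjusted p = 0.40, unadjusted p = 0.19). A12 was lower in 7 of the 9 pairings of an A12 with a B46 library. The 95% interval of -1.04 to 0.25 corresponds to an A12 level between 0.485 and 1.19 times that of B46. The upper end of the interval became 1.42, 1.41 and 1.29 times without B46 replicate 1, B46 replicate 2 and A12 replicate 1, and 0.929 times without B46 replicate 3. The call threshold throughout is an adjusted p under 0.05 over the 22741 genes tested, at which 9.86% of all genes were called. An unadjusted p under 0.05 was reached by 27.2% of all genes tested.

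The FEA2 estimate was smaller and far tighter. Its log2 fold change was -0.19 (SE 0.09, edgeR adjusted p = 0.21, unadjusted p = 0.063), a level 12.4% lower in A12. The 95% interval of -0.40 to 0.01 runs from 0.760 to 1.01 times the B46 level. Its upper end became 1.07 times when either B46 replicate 1 or 2 was left out, and 1.06 or 1.03 times when A12 replicate 3 or 1 was. The separation of the lines in 9 of 9 library pairings is common in these data, since 33.4% of all tested genes had no overlap between lines. An exact two-sided permutation test over libraries gave p = 0.10 for FEA2, the smallest that 3 against 3 allows, and p = 0.40 for TD1.

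Single libraries moved the TD1 estimate. Without B46 replicate 3 it was -0.64 with an interval of -1.17 to -0.11 (edgeR adjusted p = 0.14). Leaving out A12 replicate 1 instead brought it to -0.20 (adjusted p = 0.60), and leaving out B46 replicate 1 to -0.23 (adjusted p = 0.72), both from edgeR. The FEA2 estimate stayed between -0.23 and -0.15 whichever library was left out.

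**Figure D2:**
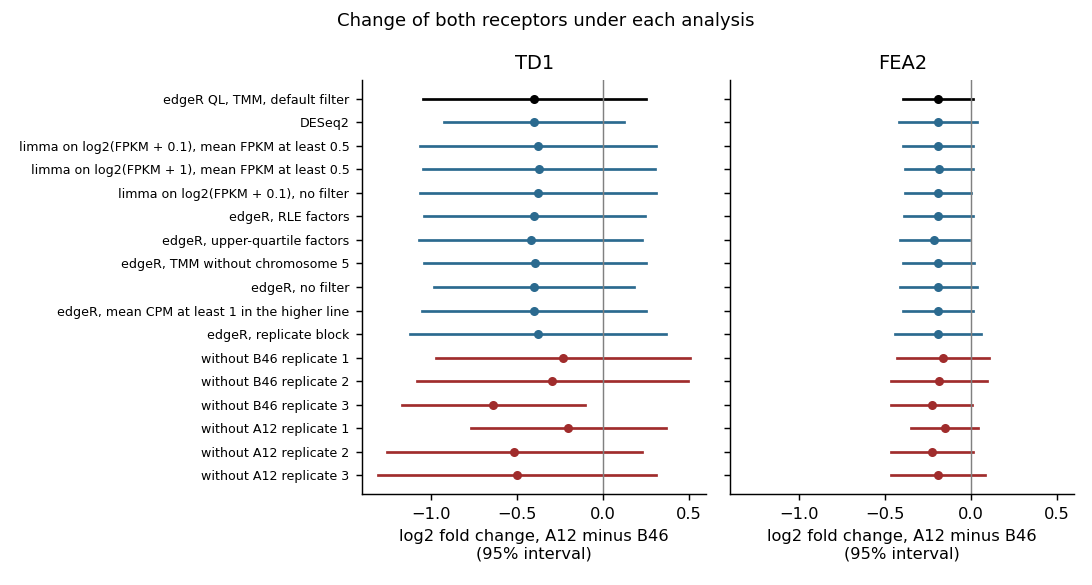
Log2 fold change with 95% interval for TD1 (left) and FEA2 (right) in the fit described in the text (black), under 10 other processing settings (blue) and with each library left out (red). TD1 estimates run from -0.64 to -0.20 and FEA2 estimates from -0.23 to -0.15, and neither gene passed the adjusted threshold in any of the 16 alternatives.

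Between pools of the same line the spread was wide for TD1 and narrow for FEA2, given here as a description without a test. TD1 varied 1.90-fold between the highest and lowest B46 library and 1.63-fold between those of A12, on the scale of library-scaled counts per 1e6 reads (CPM). For FEA2 the same ratios were 1.10 and 1.10. The coefficient of variation of TD1 was 31.3% in B46 and 25.3% in A12, where counting alone would give 1.84% and 2.15%. For FEA2 it was 4.60% and 4.98%, against 3.11% and 3.40% from counting.

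Pooled over both lines, the within-line SD of log2 CPM was 0.46 for TD1 and 0.07 for FEA2. The median over the 14984 genes with a mean of at least 10 CPM was 0.16. Of these genes, 94.2% varied less within lines than TD1, and 7.71% varied less than FEA2. The chi-square of FEA2 counts against unscaled library totals was 1.59 per degree of freedom in B46 and 0.681 in A12. Counting error alone gives a value near 1. For TD1 these were 279 and 119. The coefficients of variation above use scaled CPM instead. On that scale FEA2 varied more than counting alone gives in both lines (4.60% and 4.98%, against 3.11% and 3.40%). Depth therefore did not limit the TD1 interval, whose width follows the spread between pools.

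**Figure D3:**
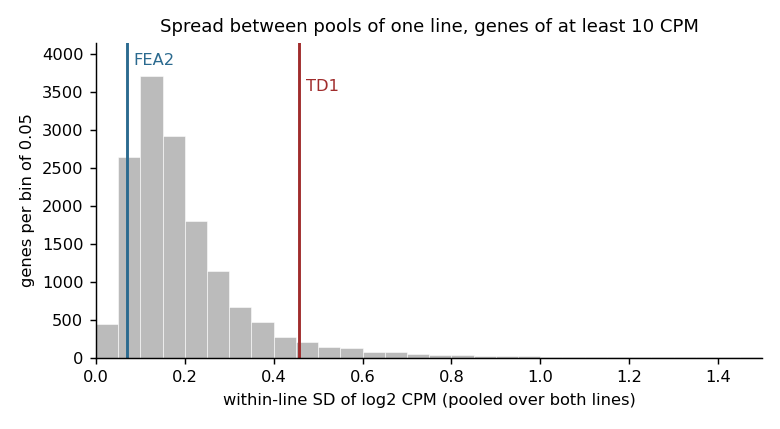
Distribution of the within-line SD of log2 CPM over 14984 genes with a mean of at least 10 CPM, in bins of 0.05, with FEA2 and TD1 marked by vertical lines. FEA2 (0.07) lies left of the median of 0.16 and TD1 (0.46) lies in the right tail.

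The ratio of TD1 to FEA2 within a library does not depend on library scaling. The FPKM ratio was 1.77, 1.71 and 1.02 in B46 and 0.977, 1.44 and 1.49 in A12. B46 replicate 3 and A12 replicate 1 were again the low libraries, and the lines overlapped. The mean log2 ratio was 0.54 ± 0.44 in B46 and 0.36 ± 0.34 in A12 (SD, n = 3), a difference of -0.19 (exact two-sided permutation p = 0.50). Without A12 replicate 1 the difference was 0.01.

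Markers of the labelled tissue were present in part. The gene annotated as WUSCHEL had 0 reads in every library, and 10 of 20 WUSCHEL-related genes had enough reads to test. KNOTTED 1 (Zm00004b005000), the homeobox gene that maintains the meristem, was at 81.1, 76.5 and 64.9 FPKM in B46 and 42.0, 79.8 and 66.1 in A12, lowest in A12 replicate 1. Genes annotated as RAMOSA 3, a trehalose phosphate phosphatase expressed at the base of axillary meristems, summed to 103, 90.0 and 33.8 FPKM in B46. In A12 they summed to 5.57, 21.1 and 15.7 FPKM. The 1 tested gene of this list was called lower in A12, where 5.25% of all tested genes fell. Its log2 fold change was -2.43 (SE 0.56, edgeR adjusted p = 0.039), and it was called in 10 of 16 alternatives. Within each line the library with the least RAMOSA 3 was also the one with the least TD1, namely B46 replicate 3 and A12 replicate 1.

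Transcripts of other tissues moved with libraries too. The list of photosystem and chlorophyll-binding genes, typical of leaf, summed to 199, 226 and 293 FPKM in B46 and 727, 128 and 289 in A12. Of its 44 tested genes 1 rose and 0 fell, beside 4.61% and 5.25% of all tested genes. In the list, 11 of 70 genes had 0 reads everywhere. In both lines the library with most photosystem and chlorophyll-binding RNA had the least TD1. Floral MADS-box genes, which specify floral organs, summed to 84.2, 78.1 and 50.7 FPKM in B46 and 674, 228 and 354 in A12. Of 15 tested members 12 rose in A12, beside 4.61% of all tested genes, and 3 of 20 listed had 0 reads everywhere. In A12 the library with most floral MADS-box RNA had the least TD1 and FEA2, whereas in B46 the library with the least had the least of both.

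YABBY genes, which mark lateral organs, summed to 112 to 200 FPKM in B46 and 211 to 239 in A12. Of 10 tested YABBY genes 2 were called higher in A12, beside 4.61% of all tested genes, and 0 of 11 listed were without reads. KNOX genes summed to 607 to 833 FPKM in B46 and 679 to 1003 in A12. Of 12 tested KNOX genes 2 were called higher in A12, beside the same 4.61%, and 3 of 20 listed were without reads. The part of tissue makeup or stage in the TD1 and FEA2 values was not tested. In bulk RNA of this kind, fewer cells of a type and less RNA per cell cannot be told apart.

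**Figure D4:**
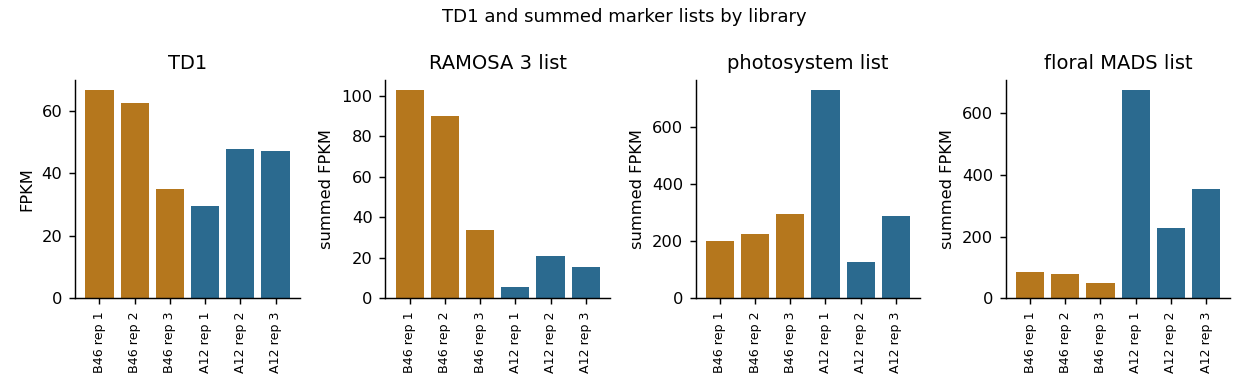
FPKM of TD1 and summed FPKM of 3 marker lists in each library (B46 brown, A12 blue); each panel has its own axis from 0. B46 replicate 3 and A12 replicate 1 have the least TD1 and RAMOSA 3 and the most photosystem RNA of their lines, and A12 replicate 1 has the most floral MADS-box RNA, 674.

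Among receptors, TD1 and FEA2 were well above the typical level. Of 229 tested genes described as LRR or similar receptors, TD1 ranked 23 and FEA2 ranked 37 by mean FPKM over all libraries, at 48.1 and 33.9 against a median of 7.71. By line, TD1 ranked 20 in B46 and 30 in A12, and FEA2 ranked 37 and 36. Over all tested genes, 90.1% had a lower mean FPKM than TD1 and 84.0% a lower one than FEA2.

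The CLV1-type kinases form the group closest to TD1, with 12 genes listed and 10 tested. Besides TD1 these match BAM1, an Arabidopsis CLE receptor kinase that acts alongside CLAVATA1, or the soybean receptor CLV1B. In FPKM averaged over libraries, 3 members stood above TD1. The highest, Zm00004b000867, was at 155 ± 9.64 in B46 and 148 ± 34.6 in A12. Zm00004b034752 followed at 81.1 ± 8.41 and 67.8 ± 0.620. Zm00004b005285, at 55.4 ± 3.25 and 45.4 ± 4.42 FPKM (SD, n = 3), did not differ from TD1 beyond the TD1 spread. The next below, Zm00004b031442, was at 20.1 ± 4.67 and 19.5 ± 4.55 FPKM. TD1 made up 16.1%, 15.4% and 8.92% of the summed FPKM of the group in B46 and 9.94%, 11.8% and 12.7% in A12. Reads shared between close copies could shift these levels, since how multiply mapping reads were counted is not known here.

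Of the 10 tested CLV1-type genes 1 rose in A12 and 0 fell, where 4.61% of all tested genes rose and 5.25% fell. Their median log2 fold change was -0.17, against 0.01 over all genes tested. Of these 10 genes, 5 had an unadjusted p under 0.05 by edgeR, beside 27.2% of all genes tested. The gene that rose, the CLV1B-like Zm00004b038063, was barely expressed, with 5, 6 and 4 reads for B46 and 24, 13 and 16 for A12. Its log2 fold change was 1.86 (SE 0.43, edgeR adjusted p = 0.040). That call was lost when any single library was left out. It was also lost with DESeq2, with limma or edgeR without a filter, and with replicate number as a block. The BAM1-like genes Zm00004b034752, Zm00004b005285 and Zm00004b011154 had log2 fold changes of -0.26, -0.29 and -0.32, and each had an edgeR adjusted p of 0.13 to 0.16. In all 3 the A12 libraries lay below the B46 libraries without overlap, beside 33.4% of all tested genes without overlap in either direction. The weakly expressed BAM1-like Zm00004b028261 counted 19, 14 and 27 reads for B46 and 4, 9 and 10 for A12 (edgeR adjusted p = 0.12). The other 4 BAM1-like genes tested had log2 fold changes between -0.07 and 0.36. The highest of them, Zm00004b010187, was at 0.68 and called without B46 replicate 3 (edgeR adjusted p = 0.027), and was not called in the other 15 alternatives (adjusted p up to 0.66).

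FEA2 was the only gene matched to the CLV2 type. The remaining CLE receptors and partners numbered 9, of which 6 were tested and 0 called by edgeR (2 at an unadjusted p under 0.05, which 27.2% of all genes reached). CORYNE (Zm00004b017942), a membrane pseudokinase that works with CLAVATA2 in Arabidopsis and with FEA2 in maize, was at 25.0 ± 0.981 FPKM in B46 and 25.6 ± 5.18 in A12 (SD, n = 3). Its log2 fold change was 0.03 with a 95% interval of -0.30 to 0.37 (edgeR adjusted p = 0.90). The FPKM ratio of FEA2 to CORYNE was 1.55, 1.48 and 1.31 in B46 and 0.956, 1.47 and 1.40 in A12, so A12 replicate 1 alone had less FEA2 than CORYNE. The 3 genes matching RPK2, another Arabidopsis receptor kinase that restricts stem cells, had log2 fold changes of -0.29, -0.15 and 0.10. The NIK3-like kinases, a family that holds CLE co-receptors in Arabidopsis, were at 0.44 for Zm00004b024987 (edgeR adjusted p = 0.085) and 0.11 for Zm00004b015980. The latter was at 0.28 and called without A12 replicate 1 (edgeR adjusted p = 0.041, range 0.041 to 0.99 over its alternatives).

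**Figure D5:**
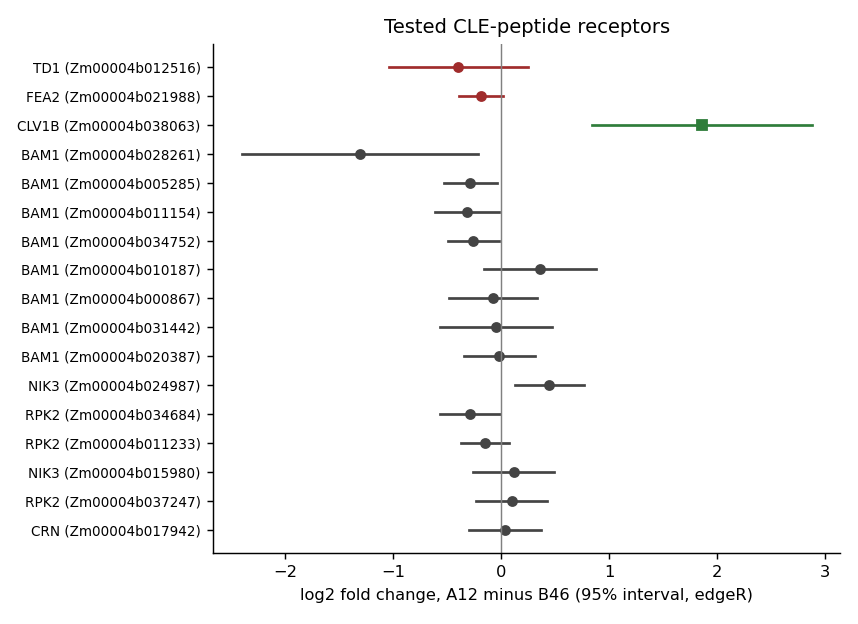
Log2 fold change (A12 minus B46) with 95% interval from edgeR for TD1 and FEA2 (red) and the other tested CLE-peptide receptors and partners (grey, or a green square where called). The CLV1B-like gene at 1.86 is the only one called, and TD1 and FEA2 lie at -0.40 and -0.19 with intervals that include 0.

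Of the ligands, 1 gene was annotated as a CLE peptide and it had 0 reads among 90993182 over all libraries, which allows up to 0.033 CPM and covers counting error only. Other CLE genes may lack that description in the annotation. The 3 hydroxyproline arabinosyltransferases, enzymes that add the sugars found on mature CLE peptides, were tested and 0 were called by edgeR (1 at an unadjusted p under 0.05, beside 27.2% of all genes). Their log2 fold changes were 0.55 for the HPAT1-like gene (edgeR adjusted p = 0.098), 0.43 for the RDN2-like and 0.10 for the PLENTY-like gene.

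Downstream of the receptors, 0 of 8 tested G protein subunits were called by edgeR, beside 9.86% of all tested genes. The alpha-1 subunit gene Zm00004b000532 came nearest, and the alpha subunit is known to transmit the FEA2 signal in maize. It gave 593, 663 and 624 reads for B46 and 775, 713 and 784 for A12, without overlap, as in 33.4% of all tested genes. Its log2 fold change was 0.34 (standard error 0.09, edgeR adjusted p = 0.051). It passed with DESeq2, with scaling that left out chromosome 5 and without A12 replicate 1, and its adjusted p spanned 0.037 to 0.19 over the alternatives in edgeR, DESeq2 and limma. Of 7 tested POLTERGEIST-type phosphatases, which in Arabidopsis act between CLAVATA receptors and WUSCHEL, 0 were called by edgeR and 3 had an unadjusted p under 0.05, beside 27.2% of all genes, with log2 fold changes from -0.39 to -0.33. The 4 TOPLESS-related corepressors, partners of WUSCHEL-type factors, had log2 fold changes from -0.99 to -0.09. By edgeR 0 were called and 2 had an unadjusted p under 0.05, a level that 27.2% of all genes reached. By far the most expressed, Zm00004b038781, was the one at -0.09, with 114 ± 7.43 FPKM in B46 and 107 ± 24.3 in A12 (SD, n = 3). An unnamed transcript model with 38, 29 and 50 reads for B46 and 16, 22 and 18 for A12 was at -0.99. Further unnamed models were at -0.92 (edgeR adjusted p = 0.052) and -0.23 (edgeR adjusted p = 0.26).

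The WUSCHEL-related homeobox list held 20 genes. Of 10 tested, 1 rose and 0 fell, beside 4.61% and 5.25% of all tested genes. The gene annotated as WUSCHEL itself had 0 reads in every library, and 9 further members had too few reads to test or none. WOX4 (Zm00004b040409), a vascular and shoot meristem factor in other plants, rose from 4, 3 and 10 reads to 22, 39 and 25. The estimate was 2.38 on the log2 scale (standard error 0.52, edgeR adjusted p = 0.033). That call was lost when B46 replicate 1 or 2, or A12 replicate 2 or 3, was left out, and with replicate number as a block.

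TGA-type bZIP factors are the family of maize FASCIATED EAR 4, another regulator of meristem size. Of 12 tested, 2 fell and 0 rose, where 5.25% of all tested genes fell and 4.61% rose. TGAL5 (Zm00004b030657, chromosome 6) went from 275, 283 and 327 reads in B46 to 28, 21 and 21 in A12, that is -3.59 on the log2 scale (standard error 0.19, edgeR adjusted p = 0.00023). All 16 alternatives called it. TGAL1 (Zm00004b028077, chromosome 8) fell from 36.1 ± 5.36 to 18.9 ± 4.19 CPM (SD, n = 3). Its log2 fold change was -0.94 (SE 0.19, edgeR adjusted p = 0.025). This call was lost when B46 replicate 1 or 2, or A12 replicate 3, was left out, and with replicate number as a block. TGAL6-like Zm00004b040365 went the other way without being called, from 21, 18 and 41 reads in B46 to 157, 39 and 79 in A12. Its log2 fold change was 1.84 (SE 0.55, edgeR adjusted p = 0.080). TGAL6-like Zm00004b026849 was at -0.26 (edgeR adjusted p = 0.13). Taken as 1 list without TD1 and FEA2 but with the whole TGA family, the pathway had 59 tested genes. Of these 2 rose, 2 fell and 55 were not called. That is 6.78% called beside 9.86% of all genes, with a median log2 fold change of -0.05. Both genes that fell were of the TGA family, TGAL5 and TGAL1, and neither is annotated as FASCIATED EAR 4. An unadjusted p under 0.05 was reached by 19 of the 59, beside 27.2% of all genes. The list had 1 call when B46 replicate 1, B46 replicate 2 or A12 replicate 3 was left out, where 3.07%, 1.86% and 1.73% of all genes were called. It had 7 calls of 59 without A12 replicate 1 (11.9%), where 19.3% of all genes were called.

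TD1 lies on chromosome 5, from 64372450 to 64376033 on the plus strand, and FEA2 on chromosome 4, from 140651467 to 140653308 on the minus strand, as the deposited table gives them without naming a build. The 5 Mb window that holds TD1, from 60 to 65 Mb, had 2 of 73 tested genes called, or 2.74%, and ranked 39 by that share among 43 windows of chromosome 5. The window with the highest share, from 145 to 150 Mb, had 15 of 32 called, 14 of them lower in A12, and begins 80.6 Mb from TD1. Within 1 Mb of TD1, 28 genes were tested, with a median log2 fold change of 0.01. By edgeR 1 was called, 3.57% against 13.0% for the whole chromosome and 9.86% of all genes. The chromosome share includes the windows from 145 to 185 Mb, with 28% to 46.9% called. By DESeq2, 4 of 34 were called (11.8%), beside 11.4% of all genes. The gene called by edgeR is annotated as the DNA damage kinase ATR (Zm00004b012531, 548 kb after TD1). It had 1602, 1785 and 1796 reads for B46 and 1191, 1213 and 1318 for A12. Its log2 fold change was -0.41, with an SE of 0.08 (edgeR adjusted p = 0.026). It was not called without any 1 of B46 replicates 1, 2 or 3 or A12 replicate 3. The limma fits and the fit with replicate number as a block did not call it either. Without A12 replicate 1 the neighbourhood had 6 calls of 28 (21.4%), beside 19.3% of all genes in that fit.

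The gene directly after TD1 on the same strand varied in another way. Zm00004b012517, annotated as EARLY-RESPONSIVE TO DEHYDRATION 7, counted 256, 303 and 624 reads for B46 and 187, 123 and 114 for A12. Its log2 fold change was -1.41, with an SE of 0.37 (edgeR adjusted p = 0.054). It was called with DESeq2, with edgeR without a filter and without A12 replicate 1, with an adjusted p from 0.0017 to 0.19 over all 16 alternatives. B46 replicate 3, the lowest B46 library for TD1, was the highest for this neighbour. The other 5 adjacent tested genes, 3 before TD1 and 2 after, had log2 fold changes from -0.12 to 0.50. Around FEA2, 0 of 15 tested genes within 1 Mb were called by edgeR, 0 by DESeq2 and 0 by limma on FPKM. The share called was 9.77% over chromosome 4 by edgeR, and 11.4% by DESeq2 and 8.49% by limma over all genes. By edgeR 2 had an unadjusted p under 0.05, beside 27.2% of all genes. Without A12 replicate 1 there were 4 calls of 16 tested (25.0%), beside 19.3% of all genes in that fit. The nearest called genes on either side lay 6907 and 8374 kb away.

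Patterns most like each receptor were sought over 6 libraries among genes with a mean of at least 10 CPM, as Pearson's r of log2 CPM. With so few libraries high values are common, and 59 genes had r above 0.95 with TD1 and 328 with FEA2. Closest to TD1 were Zm00004b004403 (r = 0.994), which has no description, IAA15 (Zm00004b025009, r = 0.991), an Aux/IAA repressor of auxin response, and the bZIP gene TGAL3 (Zm00004b029935, r = 0.989). TGAL3 gave 1962, 1820 and 1227 reads for B46 and 937, 1392 and 1400 for A12, with the same low libraries as TD1. Closest to FEA2 were the HEN4-like KH-domain gene Zm00004b035368 (r = 0.995), a TIR1-like auxin receptor gene (Zm00004b015180, r = 0.994) and the autophagy gene ATG8C (Zm00004b006268, r = 0.993). The points are 6 libraries of 2 lines, so any gene that differs between the lines or follows the same low libraries can reach such values.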

How the data were processed

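Polyadenylated RNA of 6 libraries was measured, 3 for each line. The authors deposited unnormalized gene counts and FPKM values for the same genes, and all sample columns were used. Total counts were 14625831 to 15675012 per library. The submitters' processing notes name HISAT2 2.0.5 and DESeq2 1.20.0. The sources used here give no genome build, read counter, strand setting or treatment of multiply mapping reads, so overlapping genes and near-identical copies cannot be told apart. Gene names are Swiss-Prot matches in the deposited table. In the RefSeq gene table supplied, 0 entries matched either identifier, so no sequence or coordinate was taken from it.

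Counts were tested in R 4.3.3 with edgeR 4.0.16 (default expression filter, TMM scaling, quasi-likelihood F-test, two-sided, no covariates, Benjamini-Hochberg adjustment over 22741 genes). Each 95% interval is the estimate plus or minus the t quantile of the fit times its SE. CPM are TMM-scaled, and log2 CPM uses a prior count of 2. Alternatives were DESeq2 1.42.0, limma 3.58.1 on log2(FPKM + 0.1 or + 1), other scalings and filters, a replicate block and each library left out. The procedure was tested on simulated data. P-values measure the spread between pools. Within a line, chi-square per degree of freedom between libraries was 3.04 to 43.4, so no pair was alike within sampling noise.

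The receptors, gene lists and rules were chosen with earlier results of these data known. List patterns were completed after the annotation was read, to take in the BAM and CLV1B kinases and RAMOSA 3 and to leave out RACK1 and teosinte glume architecture genes. Named genes were all tested receptors, up to 4 genes of lowest p in each other pathway list, the 3 adjacent tested genes on either side, and the 3 genes of highest r, without unnamed transcript models.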

Additional observations from a re-analysis of the deposited data

How the results depend on the processing

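TD1 and FEA2 kept their direction and stayed uncalled in all 16 alternatives. The adjusted p was 0.14 to 0.72 for TD1 and 0.16 to 0.47 for FEA2 over edgeR, DESeq2 and limma alternatives. Interval bounds were -1.31 to 0.51 and -0.47 to 0.10 at their widest. With each library left out, TD1 ranged from -0.64 to -0.20 and FEA2 from -0.23 to -0.15. The FEA2 interval excluded 0 with upper-quartile factors (-0.42 to -0.01). The TD1 to FEA2 log2 ratio difference ranged from -0.44 to 0.0085, the latter, of opposite sign, without A12 replicate 1. Library scalings cannot change it.

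Counts of calls moved more. All genes called were 2242, 3511 with DESeq2, and 401 to 4446 with a library left out (401 and 4446 without A12 replicates 3 and 1, and 714, 432 and 1410 without B46 replicates 1, 2 and 3). Pathway genes called were 4 of 59 tested (6.78%, beside 9.86% of all genes). With a library left out they were 1 to 7, where 1.73% to 19.3% of all genes were called. TD1 neighbours called were 1 of 28 tested (3.57%, beside 9.86% of all genes). They were 4 of 34 with DESeq2 (11.8%, beside 11.4%) and 3 of 34 without a filter (8.82%, beside 7.06%). With upper-quartile factors they were 2 of 28 (7.14%, beside 10.1%). Each of the 3 limma fits called 0, beside 8.49%, 8.43% and 5.96% of all genes. With a library left out the count was 0 to 6, where 1.73% to 19.3% of all genes were called. FEA2 neighbours called were 0 of 15, beside 9.86% of all genes, and 0 to 4 with a library left out. The 4 were of 16 tested (25%), without A12 replicate 1, where 19.3% of all genes were called. The cause was not tested.

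With the replicate block, 967 genes were called, 4.25% of those tested. Among them were 1 of 59 pathway genes (1.69%) and 1 of 28 TD1 neighbours (3.57%). The TD1 and FEA2 estimates were -0.38 and -0.19. The ratio difference was -0.19 (exact sign-flip p = 0.75). Libraries with the same replicate number did not deviate together (r = -0.12, -0.01 and 0.01 for replicates 1, 2 and 3). Pairs of unequal number ran from -0.12 to 0.15. With so few pairs, these values cannot tell whether libraries of equal number share anything in handling.

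For other named genes, alternatives were added after seeing the data. Genes near 0 and uncalled with all libraries changed sign when a library was left out: Zm00004b000867 ranged from -0.24 to 0.10, Zm00004b031442 from -0.21 to 0.13, Zm00004b020387 from -0.11 to 0.14, Zm00004b015980 from -0.0056 to 0.28 (the latter called, without A12 replicate 1), Zm00004b037247 from -0.0007 to 0.18 and CORYNE from -0.14 to 0.12. CLV1B-like Zm00004b038063 was called in 4 of 14 alternatives, WOX4 in 11 and TGAL1 in 12 of 16. The CLE peptide and WUSCHEL genes had 0 reads, and the reason was not tested. The CLV1B-like gene had only 4 to 24 reads per library, so counting error weighs on its values. TD1, with 1511 to 3565 reads, was not limited by depth.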
